A study of Mus musculus with 157 samples.

Results

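The 35 genes described here are interferon-stimulated and RNA-sensing genes of the mouse. They were chosen by name, as the rows of each deposited table with these symbols. The rule uses no measured value, but the list was drawn up with earlier results of these data known. All 35 symbols were found among the 36102 gene rows of each of the 5 count tables. They comprise 6 sensors of foreign nucleic acid and their adaptors (Ddx58, Ifih1, Dhx58, Mavs, Trim25, Zbp1), 7 genes that bind or edit double-stranded RNA or resemble such genes (Oas1a, Oas2, Oas3, Oasl1, Oasl2, Eif2ak2, Adar), 3 genes of the Isg15 conjugation system (Isg15, Usp18, Herc6) and 3 Ifit genes (Ifit1, Ifit2, Ifit3). A further 11 antiviral effectors and other induced genes (Mx1, Mx2, Rsad2, Cmpk2, Bst2, Isg20, Samd9l, Rtp4, Xaf1, Ifi44, Ifi27l2a) and 5 signalling or ADP-ribosylation genes (Stat2, Ifi35, Parp9, Dtx3l, Parp14) complete the set.

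The series profiled N6-methyladenosine (m6A), a methyl mark on adenosines inside mRNA, across mouse blood formation in 157 samples. Cells labelled Mettl3 -/- and wild-type cells were compared in LT.HSC (long-term haematopoietic stem cells), ST.HSC (short-term stem cells), MPP (multipotent progenitors), CMP, GMP and MEP (common myeloid, granulocyte monocyte and megakaryocyte erythroid progenitors) and MkP (megakaryocyte progenitors), with 2 input RNA libraries and 2 libraries precipitated with anti-m6A antibody (IP) for each genotype and type. LT.HSC labelled Igf2bp2 -/- and wild-type LT.HSC had 2 RNA libraries each, without precipitation. A wild-type atlas held 2 input and 2 IP libraries of each of 16 types, which are the 7 mature types B_cell, CD4, CD8, DC (dendritic cells), Erythroid, Monocyte and Neutrophil and the 9 stem and progenitor types LT.HSC, ST.HSC, MPP, LMPP, CLP, CMP, GMP, MEP and MkP (LMPP and CLP are lymphoid-primed and common lymphoid progenitors). All of these cells were untreated. Wild-type cells labelled with 4-thiouridine (4sU), a uridine analogue read as T-to-C changes, gave new RNA after 3 h in 6 types and RNA decay after 24 h of labelling in LT.HSC and MkP. Mettl3 is the enzyme that writes most m6A on mRNA, and Igf2bp2 is a protein that binds RNA carrying the mark. The labels used here give no strain, sex, age, Cre driver or number of animals, and do not tie the 2 replicates of a group to separate animals. The p-values therefore cover no more than the spread between these libraries, which may be technical.

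Type I interferons bind the receptor Ifnar1 and Ifnar2, whose kinases Jak1 and Tyk2 phosphorylate Stat2. Stat2 acts with Irf9 in a complex that binds interferon-stimulated response elements near the start sites of genes such as those described here. Double-stranded RNA in the cytoplasm is sensed by the helicases encoded by Ddx58 (RIG-I) and Ifih1 (MDA5), which signal through Mavs to induce interferon. Interferon signalling is known to draw stem cells of the bone marrow out of quiescence, and m6A is known to limit the recognition of a cell's own RNA by these sensors.

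Promoter sequences are shown for 4 members that the results below return to, because the element bound by the complex that holds Stat2 and Irf9 can be read in them directly. RefSeq on GRCm38.p6 gave a promoter window, from 250 bases before to 50 bases after the start site, for 25 of the 35 members. The letters GAAANNGAAA were searched on both strands, counting overlapping matches, and are in capitals below (as TTTCNNTTTC where they lie on the opposite strand). They occurred in a window of 11 of the 25 members (44.0%), against 3.99% of all 27025 genes with a window. Ifit2, Isg20 and Adar had more than 1 window each. Each match is a description of these letters and not a mapped binding site. Isg15 (chr4:156200769-156201068, minus strand) held 3 overlapping matches, from position -78 to -66. Rsad2 (chr12:26456403-26456702, minus strand) held 1 match at -120. Ifit3 (chr19:34583279-34583578, plus strand) held 2 at -156 and -122. Oas1a (chr5:120907476-120907775, minus strand) held 2 overlapping matches at -20 and -14.
Isg15: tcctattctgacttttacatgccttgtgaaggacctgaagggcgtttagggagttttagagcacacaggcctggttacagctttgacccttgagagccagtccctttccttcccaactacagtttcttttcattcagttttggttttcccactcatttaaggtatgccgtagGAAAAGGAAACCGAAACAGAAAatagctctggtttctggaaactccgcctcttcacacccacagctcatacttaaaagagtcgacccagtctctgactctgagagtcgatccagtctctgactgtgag
Rsad2: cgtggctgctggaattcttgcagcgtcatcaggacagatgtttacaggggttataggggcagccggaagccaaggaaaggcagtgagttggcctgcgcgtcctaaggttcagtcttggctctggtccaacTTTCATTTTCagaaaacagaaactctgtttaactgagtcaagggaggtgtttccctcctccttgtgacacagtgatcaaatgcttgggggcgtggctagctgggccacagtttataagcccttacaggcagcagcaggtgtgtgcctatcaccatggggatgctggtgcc
Ifit3: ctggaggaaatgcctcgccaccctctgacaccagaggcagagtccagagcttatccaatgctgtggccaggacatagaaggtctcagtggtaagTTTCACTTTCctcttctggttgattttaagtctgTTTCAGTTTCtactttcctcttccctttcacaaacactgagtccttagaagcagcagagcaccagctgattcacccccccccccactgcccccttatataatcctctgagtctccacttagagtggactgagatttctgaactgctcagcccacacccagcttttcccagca
Oas1a: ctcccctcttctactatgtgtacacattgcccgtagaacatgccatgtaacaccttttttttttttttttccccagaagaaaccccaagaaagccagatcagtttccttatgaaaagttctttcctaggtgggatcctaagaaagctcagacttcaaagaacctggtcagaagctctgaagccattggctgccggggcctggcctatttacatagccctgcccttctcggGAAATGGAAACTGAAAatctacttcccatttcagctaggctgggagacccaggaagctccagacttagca
The letters were also found in the windows of Ifit1, Oas3, Stat2, Ddx58, Ifih1, Bst2 and Eif2ak2. Several members are neighbours in this annotation. Rsad2 and Cmpk2 lie within 37 kb on chromosome 12, Ifit1, Ifit2 and Ifit3 within 99 kb on chromosome 19, and Oas1a, Oas2 and Oas3 within 177 kb on chromosome 5. Reads of Ifit1 and Ifit1bl1, Ifit3 and Ifit3b, Oas1a and Oas1g, or Ifi27l2a and Ifi27l2b may be split between near copies, so the levels of these members are uncertain, and the sources used here do not say whether counting used the strand.

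Several libraries stood apart. The level of Mettl3 did not separate the genotypes in the inputs, with a lowest, median and highest normalised read count of 274, 489 and 931 in the libraries labelled knockout, against 127, 428 and 5370 in wild type. Igf2bp2 had 15.9 and 12.4 CPM (counts scaled by the library total) in the libraries labelled knockout, against 6.51 and 48.1 in wild type. The labels do not say which part of either gene is deleted. These checks therefore do not verify the genotypes, and every direction below refers to the libraries labelled knockout. Input depth was 8.23 to 21.5 M reads in the atlas and 3.42 to 20.2 M in the Mettl3 set, and the Mettl3 IP libraries held 0.819 to 22.9 M. The wild-type LT.HSC inputs of the Mettl3 set correlated at 0.776, the lowest of its input pairs. Of the counts, 94.2% fell on 10 genes in wild-type IP LT.HSC library 1 and 75.8% in wild-type IP ST.HSC library 1, whose pair correlated least of all (0.480). Knockout IP MEP library 1 was the one with 0.819 M reads. In the atlas, 10 genes held 52.2% and 58.8% of the Erythroid inputs and 82.3% and 81.2% of the Erythroid IP libraries. The Monocyte inputs held summed neutrophil markers of 21605700 to 28775100, above the 2165220 to 2338650 of the Neutrophil inputs, and 1 read there was worth 7.97 and 11.6 in normalised read count, while in the other atlas inputs it was worth at most 2.63.

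The atlas inputs were used to ask where the 35 genes are expressed. By the limma F test on log2(value + 1), all 35 differed between types, as did 92.8% of the 17165 genes tested. The genes did not share a single pattern. Of the 35, 8 had their highest mean in Erythroid, 6 in DC, 5 in B_cell, 5 in Monocyte, 2 each in CD8, CLP and MEP, and 1 each in CD4, Neutrophil, LT.HSC, ST.HSC and LMPP. GMP was the lowest type for 12 members, and MEP and MkP for 6 each. The share of all genes lowest in these types is not given here, so these counts describe no trait of the members. Both libraries of the highest type lay above all 30 others for 22 of 35 members, against 43.5% of all genes. Normalised read counts are not divided by transcript length, so they are compared below between cell types and not between genes. In bulk libraries, fewer cells of a type and less RNA per cell cannot be told apart.

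**Figure D1:**
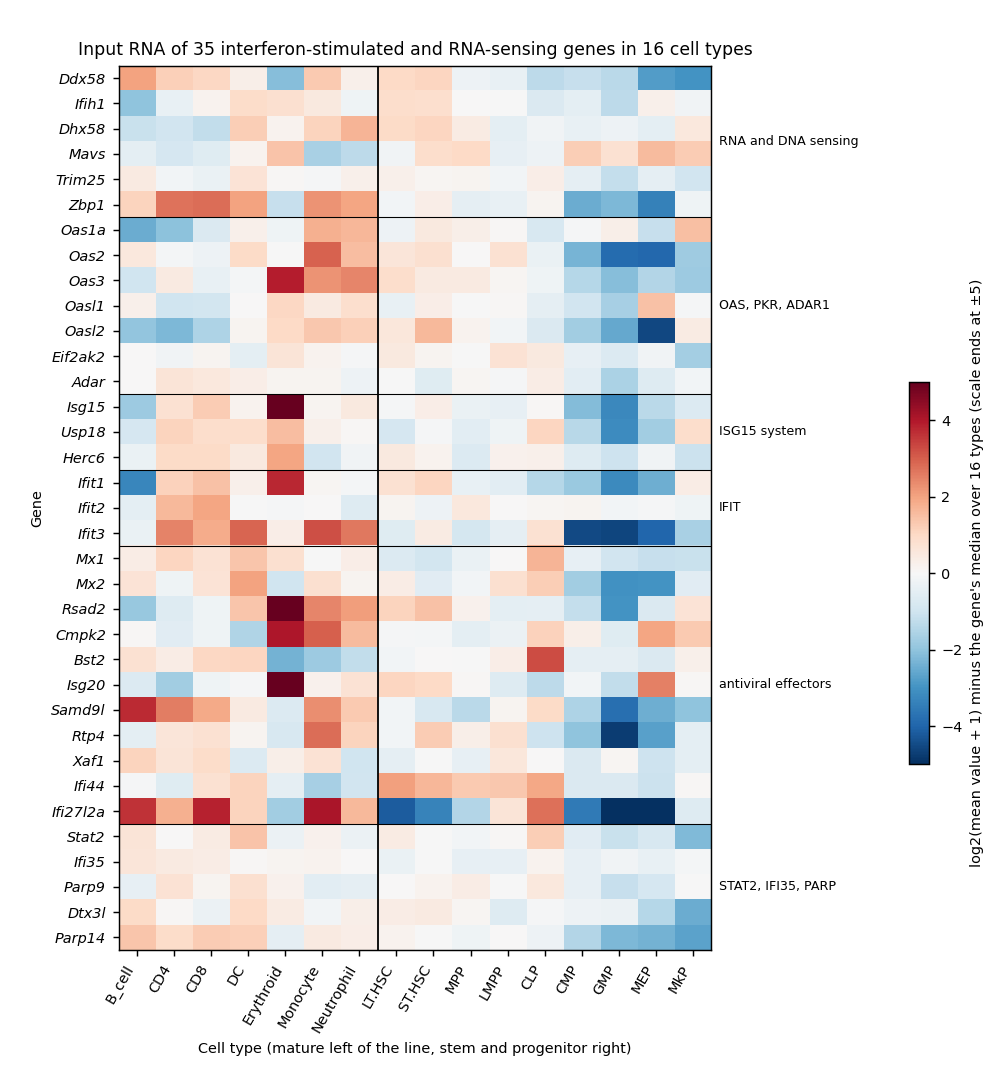
Level of each of the 35 genes in 16 wild-type cell types of the atlas inputs. Colour is log2(mean normalised read count of 2 libraries + 1) minus the gene's median over the 16 types, with mature types left of the line and stem and progenitor types right of it. Isg20, Rsad2 and Isg15 stand out in Erythroid, where Isg20 had 101729 and 96398.

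Isg20, Rsad2 and Isg15 were read at far higher levels in the Erythroid inputs than in any other type of the atlas. Isg20, a 3′ to 5′ exonuclease of single-stranded RNA, had a normalised read count of 101729 and 96398 in Erythroid, against 3416 and 4179 in MEP, the next type. Rsad2 (viperin, a radical SAM enzyme that makes a chain-terminating nucleotide) had 36348 and 37870 in Erythroid, against 382 and 312 in Monocyte, the next type. Isg15, a ubiquitin-like modifier, had 19008 and 17486 in Erythroid, against 622 and 638 in CD8, the next type. For each of the 3 genes both Erythroid libraries lay above all others. Cmpk2, the nucleotide kinase encoded next to Rsad2, had 1360 and 1441 in Erythroid, against 828 and 520 in Monocyte.

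Other members with their highest mean in Erythroid differed less from the next type. Ifit1, which binds RNA whose cap lacks ribose methylation, had 851 and 993 in Erythroid, against 224 and 154 in CD8. Oas3, a 2′-5′ oligoadenylate synthetase, had 835 and 682 in Erythroid, against 282 and 258 in Neutrophil. Herc6, the E3 ligase for Isg15 in the mouse, had 636 and 624 in Erythroid, against 366 and 259 in CD4. Usp18, the protease that removes Isg15, had 1524 and 1534 in Erythroid, against 1317 and 973 in CD4. These peaks were not shared by the whole set, since Bst2 was at its lowest in Erythroid, at 173 and 253. The share of members that peaked in Erythroid was 22.9%, against 13.3% of all genes. For the other common types it was 17.1% of members against 6.07% of all genes in DC, 14.3% against 14.2% in B_cell and 14.3% against 10.9% in Monocyte.

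The scaling of the libraries affects where the highest level falls. In CPM, Isg20 had 2780 and 2257 in Erythroid, against 309 and 369 in MEP. Rsad2 had 993 and 887 CPM in Erythroid, against 23.3 and 16.4 in ST.HSC and 27.3 and 10.9 in LT.HSC. Isg15 had 519 and 409 in Erythroid, against 53.1 and 56.1 in CD8. These 3 and Ifit1, Oas3 and Cmpk2 were highest in Erythroid on both scales, while Usp18 was highest in CD4 and Herc6 in LT.HSC in CPM. In CPM the 5 members highest in Monocyte all had their highest mean in another type, namely DC for Ifit3, CD8 for Ifi27l2a, MkP for Oas1a, LT.HSC for Oas2 and ST.HSC for Rtp4. Ddx58, Ifih1, Dhx58, Trim25 and Eif2ak2 also had their highest mean in LT.HSC in CPM, and Ifi44 stayed highest there. Of the members highest in LT.HSC in CPM, only Ifi44 had both LT.HSC libraries above all others. In all, 19 of the 35 kept their highest type. Markers of erythroid cells summed to 10244900 to 13707200 in Erythroid and to 109408 to 124386 in MEP.

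**Figure D2:**
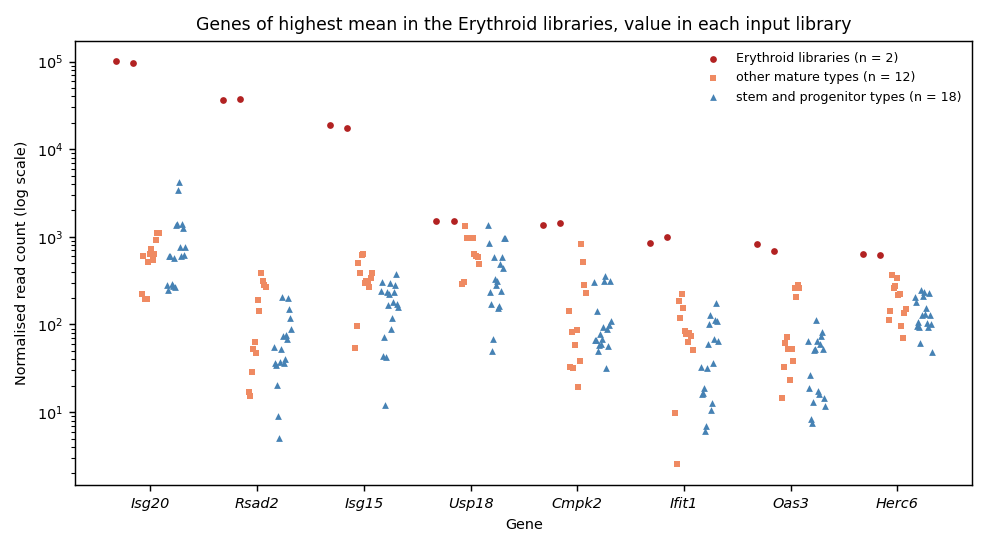
Normalised read count (log axis) of the 8 members whose highest mean was in Erythroid, in every atlas input library. Points are single libraries, for Erythroid (n = 2), the other mature types (n = 12) and the stem and progenitor types (n = 18). Rsad2 had 36348 and 37870 in Erythroid and at most 382 elsewhere.

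Among the sensors, the highest types in normalised read count differed from gene to gene. In CPM, Ddx58, Ifih1, Dhx58 and Trim25 all had their highest mean in LT.HSC. Ddx58, the RNA helicase RIG-I, had 1032 and 1022 in B_cell, against 46.2 and 26.8 in MEP and 38.6 and 23.3 in MkP. Dhx58, a helicase that tunes the other sensors, had 934 and 915 in Neutrophil. Mavs, their adaptor on mitochondria, showed another order, with 392 and 643 in MEP and 87.6 and 23.1 in Monocyte. Zbp1, a sensor of Z-form nucleic acid, had 709 and 936 in CD8 and 811 and 751 in CD4, which overlapped, and 7.97 and 13.1 in MEP.

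Of the remaining effectors, Ifi27l2a spanned the widest range. It had 10076 and 8167 in Monocyte, 7792 and 7915 in CD8 and 3829 and 3614 in CLP, against 3.72 and 2.10 in MEP and 9.06 and 13 in GMP. Bst2 (tetherin, which holds budding virus at the cell surface) was highest in CLP, at 8844 and 12053, against 2182 and 2403 in DC. The same CLP libraries held summed markers of plasmacytoid dendritic cells of 130447 to 152724, above the 34944 to 36610 of the DC libraries, and the part of these cells in the CLP values was not tested. Samd9l, a restriction factor of poxviruses, had 1682 and 4176 in B_cell, and 22.7 and 8.01 in GMP. Ifi35 was the most even member, between 1099 and 3423 in all 32 libraries. In normalised read count, Ifi44 was the 1 member highest in LT.HSC, at 191 and 193, with CLP next at 181 and 165.

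The double-stranded RNA effectors also differed in where they were highest. Oas1a, an oligoadenylate synthetase, had 2135 and 1571 in Monocyte, 1782 and 1640 in Neutrophil and 1287 and 1744 in MkP, which overlapped, against 105 and 86.2 in B_cell. Oas2 had 343 and 266 in Monocyte, against 1.51 and 2.00 in GMP and 3.19 and 0 in MEP. Oasl2 was highest in ST.HSC, at 989 and 1158, and lowest in MEP, at 20.2 and 7.88. Its near relative Oasl1 was instead highest in MEP, at 422 and 572, and lowest in GMP, at 58.9 and 55.1. Eif2ak2 had 1143 and 489 in LMPP, a wide spread that overlapped LT.HSC at 791 and 614, and 184 and 119 in MkP. Adar ranged from 281 and 373 in CD4 to 68.0 and 69.1 in GMP.

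In normalised read count, the remaining members were mostly highest in lymphoid or dendritic cells. Stat2 had 491 and 454 in DC, against 58.2 and 16.0 in MkP. Dtx3l had 1011 and 1148 in DC, and its partner Parp9 had 251 and 243 there, against 64.9 and 61.1 in GMP. Parp14 had 475 and 824 in B_cell and 635 and 556 in CD8, which overlapped, against 59.7 and 16.0 in MkP. Dtx3l was likewise lowest in MkP, at 117 and 77.2. Mx1 had 240 and 182 in CLP, and Mx2 had 90.4 and 55.0 in DC, against 1.51 and 1.00 in GMP. Xaf1 had 1222 and 2077 in B_cell, against 225 and 517 in MEP. Trim25 had 378 and 413 in DC, and Ifih1 had 139 and 144 in DC but 202 and 74.2 in LT.HSC, which overlapped. Ifit2 was highest in CD8, at 165 and 221, overlapping CD4 at 128 and 181. The Monocyte peaks of Ifit3, at 940 and 970, and of Rtp4, at 5647 and 5868, lay above DC (852 and 689) and ST.HSC (2415 and 1518) on this scale only.

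Interferon genes other than Ifng were near 0. Ifnb1 was read in 2 of the 32 atlas inputs, at most at 2.43, and in no input library of the Mettl3 set. Ifna1 was read in 3 atlas inputs, at most at 7.56, and Ifne, Ifna2, Ifna4, Ifnl2 and Ifnl3 in none. Ifng, the type II interferon of lymphocytes, was read in 16 atlas inputs and reached 872. In the Mettl3 inputs, Ifng reached 45.6 in wild type and 9.53 in libraries labelled knockout, and Ifna2 reached 13.3 and 2.36. The other interferon genes listed reached at most 3.44 there.

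Mature types were compared with stem and progenitor types on the mean of the type means, in limma over all 32 inputs. The set was higher in mature cells on balance. Of the 35 members, 25 were higher and 3 lower, where 39.4% of all genes were higher and 29.6% lower, and the median log2 fold change was 0.66 over the members and 0.16 over all genes. The standard errors (SE) come from the spread between the 2 libraries of a type and not from the spread among types. All 35 members overlapped between the 14 mature and the 18 stem and progenitor libraries, so the averages describe no member in every type.

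Among the antiviral effectors, the most marked difference was in Ifi27l2a, which encodes a small membrane protein induced by interferon. Its normalised read count was 161, 1847 and 10076 (lowest, median and highest) in mature libraries, against 2.10, 52.9 and 3829 in stem and progenitor libraries, a log2 fold change of 4.55 ± 0.11 (SE, adjusted p = 9.83e-20). Samd9l had 121, 831 and 4176 in mature libraries, against 8.01, 98.9 and 488 in stem and progenitor libraries (2.90 ± 0.16, adjusted p = 8.72e-14). Rsad2 had 15.2, 166 and 37870 in mature libraries, against 5.01, 54.2 and 205 in stem and progenitor libraries (2.05 ± 0.15, adjusted p = 1.46e-11). Its mature values spread most, because Erythroid lay far above the other types. Rtp4, a chaperone of membrane receptors that is induced by interferon, had 453, 1137 and 5868 in mature libraries, against 23.0, 528 and 2415 in stem and progenitor libraries (1.61 ± 0.15, adjusted p = 1.07e-09). These 4 genes passed in all 43 other settings, but Rsad2 was at 0.82 without the Erythroid libraries. The dynamin-like GTPase genes Mx1 (1.10 ± 0.15) and Mx2 (1.18 ± 0.26), both annotated as transcribed pseudogenes in RefSeq on GRCm38.p6, and the proapoptotic Xaf1 (0.60 ± 0.15) were also higher. Cmpk2 passed narrowly (0.56 ± 0.24, adjusted p = 0.0420), and missed the threshold in 23 of 43 other settings. Isg20 was higher with all types (0.62 ± 0.12, adjusted p = 1.02e-04), but its log2 fold change was -0.46 without the Erythroid libraries.

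Of the RNA sensors, 3 of 6 were higher and 1 was lower. Zbp1 had 39.9, 503 and 936 in mature libraries, against 7.97, 86.0 and 188 in stem and progenitor libraries (2.67 ± 0.15, adjusted p = 8.85e-14). Ddx58 had 47.4, 522 and 1032 in mature libraries, against 23.3, 121 and 599 in stem and progenitor libraries (1.48 ± 0.11, adjusted p = 1.25e-11). Trim25, the ubiquitin ligase that acts on RIG-I signalling, differed by 0.38 ± 0.11 (adjusted p = 0.00363). Mavs went the other way, with 23.1, 112 and 461 in mature libraries, against 60.5, 224 and 643 in stem and progenitor libraries (-1.11 ± 0.22, adjusted p = 1.27e-04). Ifih1 (0.06) and Dhx58 (0.01) did not pass.

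Of the double-stranded RNA effectors, 4 of 7 were higher. Oas2 had 21.6, 60.4 and 343 in mature libraries, against 0, 21.8 and 97.6 in stem and progenitor libraries (2.10 ± 0.31, adjusted p = 2.20e-06), and Oas3 differed by 1.70 ± 0.20. Oasl2, an Oas-like gene, differed by 0.53 ± 0.16 (adjusted p = 0.00446). Adar, which edits adenosine to inosine in double-stranded RNA, had 144, 243 and 373 in mature libraries, against 68.0, 150 and 294 in stem and progenitor libraries (0.59 ± 0.12, adjusted p = 1.32e-04). Oasl1 (0.31), the kinase gene Eif2ak2 (0.19) and Oas1a (-0.30) did not pass.

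The Isg15 system and most Ifit genes were higher in mature types. Ifit3, which stabilises Ifit1 on RNA in human cells, had 30.4, 527 and 970 in mature libraries, against 1.51, 46.5 and 276 in stem and progenitor libraries (3.62 ± 0.23, adjusted p = 7.59e-13). Isg15 had 53.5, 365 and 19008 in mature libraries, against 12.1, 177 and 380 in stem and progenitor libraries (1.91 ± 0.14, adjusted p = 1.55e-11). Ifit1 (1.32 ± 0.18), Usp18 (1.23 ± 0.11) and Herc6 (0.71 ± 0.13) were also higher, and Ifit2 (0.33) did not pass. In the signalling group Parp14, a mono-ADP-ribosyltransferase, had 179, 456 and 824 in mature libraries, against 16.0, 154 and 421 in stem and progenitor libraries (1.77 ± 0.17, adjusted p = 1.46e-09). Dtx3l (0.81 ± 0.15), the E3 ligase that pairs with Parp9, Stat2 (0.66 ± 0.14) and Ifi35 (0.50 ± 0.11) were higher, and Parp9 (0.23) did not pass.

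The other 2 members that were lower in mature types were Bst2 and Ifi44. Bst2 had 173, 1308 and 2549 in mature libraries, against 641, 1064 and 12053 in stem and progenitor libraries (-0.55 ± 0.11, adjusted p = 6.42e-05). Its mature median was above its progenitor median, and it did not pass without the CLP libraries (-0.17) or without the Erythroid libraries. Ifi44 had 11.6, 34.4 and 109 in mature libraries, against 9.06, 87.1 and 193 in stem and progenitor libraries (-0.78 ± 0.24, adjusted p = 0.00615), and did not pass without the Monocyte libraries. Over the set, leaving out the Monocyte libraries gave 25 members higher and 3 lower.

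LT.HSC were then compared with the mean of CMP, GMP, MEP and MkP, the committed myeloid, erythroid and megakaryocyte progenitors. Most members were higher in the stem cell. In the atlas, 23 of 35 were higher and 1 was lower, where 32.9% of all genes were higher and 19.5% lower, and the median log2 fold change was 1.24 over the members and 0.38 over all genes. Quantile normalisation moved the median of all genes to -0.05 and the numbers of all genes to 3409 higher and 3477 lower, where the deposited scale gave 5649 and 3350, and gave 22 members higher and 4 lower. The SE here again reflects 2 libraries per type.

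Oas2, Ddx58 and Oas3 were among the members that differed most. Their groups were not uniform, since Oas1a (-0.41) and Oasl1 (-0.36) did not pass and the adaptor Mavs was lower. Oas2 had 39.2 and 80.7 in LT.HSC, against 0, 2.59 and 20.6 (lowest, median and highest of 8 libraries) in committed progenitors (3.84 ± 0.69, adjusted p = 7.98e-05). Ddx58 had 471 and 559 in LT.HSC, against 23.3, 67.7 and 129 in committed progenitors (3.10 ± 0.24, adjusted p = 6.88e-10). Ifi44, a cytoplasmic protein gene induced by interferon, had 191 and 193 in LT.HSC, against 9.06, 21.1 and 78.7 in committed progenitors (2.95 ± 0.54, adjusted p = 9.02e-05). In these 3 genes the groups did not overlap. Oas3 had 65.6 and 114 in LT.HSC, against 7.55, 13.7 and 26.6 in committed progenitors (2.59 ± 0.44, adjusted p = 4.31e-05). Samd9l had 196 and 212 in LT.HSC, against 8.01, 42.6 and 104 in committed progenitors (2.39 ± 0.36, adjusted p = 1.03e-05). Parp14 had 143 and 421 in LT.HSC, against 16.0, 54.6 and 94.8 in committed progenitors (2.25 ± 0.37, adjusted p = 3.08e-05). These 3 did not overlap either. Isg15 had 220 and 294 in LT.HSC, against 12.1, 81.0 and 173 in committed progenitors (1.87 ± 0.31, adjusted p = 3.53e-05). Isg15 did not overlap, nor did Stat2 (1.64), Eif2ak2 (1.26), Herc6 (1.24), Dhx58 (1.16) and Trim25 (1.01). All of these genes were picked by passing the test. The share of all genes without overlap is not given here, so their separation adds little to the test.

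Other members were higher on average but overlapped, with single committed types also high. Oasl2 had 500 and 545 in LT.HSC, against 7.88, 73.6 and 624 in committed progenitors (2.78 ± 0.35, adjusted p = 9.95e-07). Ifit3 had 46.2 and 87.6 in LT.HSC, against 1.51, 5.0 and 46.8 in committed progenitors (3.10 ± 0.50, adjusted p = 2.59e-05). Ifit1 had 101 and 128 in LT.HSC, against 6.04, 14.6 and 111 in committed progenitors (2.54 ± 0.40, adjusted p = 1.75e-05). The high committed values of Ifit1 came from MkP, at 111 and 65.5, and the MkP libraries held summed GMP markers of 732658 to 770314, where GMP itself held 1802110 to 4803410. Without the MkP libraries 25 members were higher and 1 lower. Rtp4 (2.26), Mx2 (2.58), Rsad2 (2.03), Zbp1 (1.95), Dtx3l (1.55), Ifih1 (1.18), Isg20 (0.76) and Adar (0.73) were higher too. Without LT.HSC library 1 the last 3 of these did not pass, with Ifih1 at 0.47 (adjusted p = 0.448), and without library 2 Isg20 and Adar did not. Mavs was the only lower member, with 112 and 190 in LT.HSC, against 214, 379 and 643 in committed progenitors (-1.38 ± 0.50, adjusted p = 0.0236), and its adjusted p was 0.247 without LT.HSC library 1.

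The same contrast in the wild-type inputs of the Mettl3 set gave the measure in libraries that the atlas did not use. There 9 of 35 members were higher and 0 lower, where 7.43% of all genes were higher and 4.31% lower. Without adjustment, 16 of 35 members and 4535 of all 15030 genes had p under 0.05. By edgeR on the recovered reads, 13 members were higher and 0 lower, with 2077 of all genes higher and 676 lower. Ifit3 had 82.7 and 312 in LT.HSC, against 0, 11.7 and 22.2 in committed progenitors (4.15 ± 0.69, adjusted p = 8.80e-04). Rtp4 had 1032 and 1036 in LT.HSC, against 32.4, 163 and 417 in committed progenitors (2.90 ± 0.49, adjusted p = 0.00103). Samd9l had 165 and 211 in LT.HSC, against 0, 24.1 and 71.9 in committed progenitors (3.59 ± 0.81, adjusted p = 0.00754). None of the 9 overlapped between LT.HSC and the committed types. They were picked by passing the test, and the share of all genes without overlap is not given here. The others were Oas2 (4.19 ± 1.06), Ifi44 (4.02 ± 1.15), Zbp1 (2.46 ± 0.61), Oasl2 (2.43 ± 0.56), Rsad2 (2.36 ± 0.54) and Isg15 (2.20 ± 0.50). Without wild-type LT.HSC library 1, whose pair correlated least, 3 members passed (Ifit3, Oasl2 and Rtp4). Of the 23 members higher in the atlas, 20 had a positive log2 fold change in this set (87.0%) and 9 passed (39.1%), and of the 4875 genes higher in the atlas and tested here 89.3% were positive and 18.4% passed. Scaling changed the split of all genes, to 614 higher and 1013 lower with quantile normalisation, where the deposited scale gave 1116 and 648, while the members called were 7 higher and 0 lower.

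**Figure D3:**
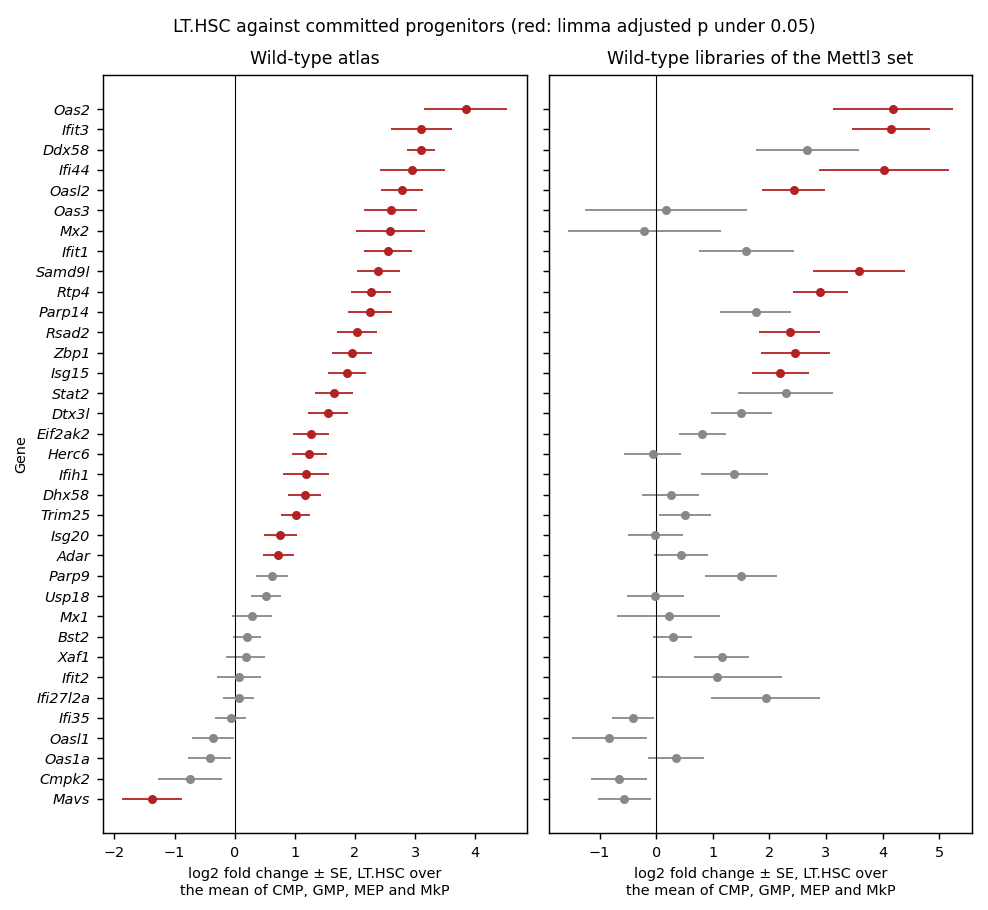
Log2 fold change of each member, LT.HSC over the mean of CMP, GMP, MEP and MkP, in the atlas inputs and in the wild-type inputs of the Mettl3 set. Bars are the SE from limma and red marks an adjusted p below 0.05. Ddx58 was at 3.10 in the atlas, and most members lie right of 0 in both sets.

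Libraries labelled Mettl3 knockout were compared with wild type on the mean of the 7 types. Few members were higher in the libraries labelled knockout. All 7 that passed overlapped between the genotypes over the 14 libraries of each. In the inputs, 7 of 35 were higher and 0 lower, where 7.24% of all genes were higher and 2.89% lower. The median log2 fold change was -0.19 over the members and -0.06 over all genes, and 13 of 35 were positive. Without adjustment, 12 of 35 members and 3939 of all 15030 genes had p under 0.05.

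Zbp1 showed the largest called difference. It had 26.3, 93.5 and 432 (lowest, median and highest of 14 libraries) in libraries labelled knockout, against 3.64, 41.9 and 154 in wild type (1.52 ± 0.29, adjusted p = 0.00174). In LT.HSC it had 172 and 371 in libraries labelled knockout, against 90.0 and 98.0 in wild type, and in MEP 59.1 and 59.9 in libraries labelled knockout, against 11.1 and 8.43 in wild type. On the mean of log2(value + 1) of a type's libraries, which is used for each count of types here, it was higher in 7 of 7 types. Rtp4 had 111, 559 and 6743 in libraries labelled knockout, against 32.4, 355 and 1781 in wild type (1.13 ± 0.24, adjusted p = 0.00346). In LT.HSC its values were 2487 and 6743 in libraries labelled knockout, against 1032 and 1036 in wild type. Rtp4 was higher in 6 of 7 types, all but CMP.

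Isg15 had 28.4, 160 and 883 in libraries labelled knockout, against 39.7, 58.4 and 257 in wild type (1.03 ± 0.24, adjusted p = 0.00730). It was higher in 7 of 7 types, and in MPP had 282 and 466 in libraries labelled knockout, against 128 and 157 in wild type. Oasl1, an Oas-like protein that in mice represses translation of Irf7, had 41.4, 347 and 905 in libraries labelled knockout, against 41.2, 109 and 533 in wild type (1.26 ± 0.32, adjusted p = 0.0127). Its values in LT.HSC were 394 and 755 in libraries labelled knockout, against 45.9 and 80.1 in wild type, but in MEP they were 367 and 389 in libraries labelled knockout, against 429 and 533 in wild type. Usp18 had 27.2, 591 and 1313 in libraries labelled knockout, against 62.0, 263 and 451 in wild type (0.92 ± 0.24, adjusted p = 0.0168), and was higher in 6 of 7 types.

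Oas1a and Ifit3 passed near the threshold. Oas1a had 300, 625 and 2122 in libraries labelled knockout, against 186, 474 and 703 in wild type (0.80 ± 0.23, adjusted p = 0.0312), and was higher in 7 of 7 types. Ifit3 had 13, 49.3 and 267 in libraries labelled knockout, against 0, 20.2 and 312 in wild type (1.08 ± 0.33, adjusted p = 0.0391). The call of Oas1a was lost in 15 and that of Ifit3 in 22 of 36 other settings. The members with the lowest values, none of which passed, were Ifi44 (-1.50 ± 0.55, adjusted p = 0.0848), Ifit2 (-1.06) and Mx1 (-1.01). Isg20 and Cmpk2 were lower on that mean in 7 of 7 types and did not pass, although in CMP Isg20 had 127 and 516 in libraries labelled knockout, against 297 and 224 in wild type. When the 7 types of each replicate number were averaged to a single value per genotype, 0 members passed.

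Summed markers of some other cells also differed between the genotypes, and no test of these sums is given here. The summed neutrophil markers had a median of 1553 in libraries labelled knockout, against 476 in wild type. They did not overlap in GMP, at 5296 and 13039 in libraries labelled knockout, against 664 and 707 in wild type, nor in ST.HSC, MPP and MEP, each with the libraries labelled knockout higher. Monocyte markers did not overlap in MEP, at 1513 and 2056 in libraries labelled knockout, against 281 and 357 in wild type, nor in ST.HSC and MPP, in the same direction. Plasmacytoid dendritic cell markers were 2564 and 2778 in LT.HSC labelled knockout, against 1258 and 1610 in wild type, and were lower in libraries labelled knockout of CMP and MkP. These lists and types were picked because their libraries did not overlap, and the share expected without a difference is not given here. With so few libraries of each genotype per type, the lack of overlap carries little weight. Medians of other lists went in both directions. GMP markers had 78032 in libraries labelled knockout, against 32398.5 in wild type, and lymphoid progenitor markers had 219, against 530. The part of any of these cells in the 7 genes was not tested.

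**Figure D4:**
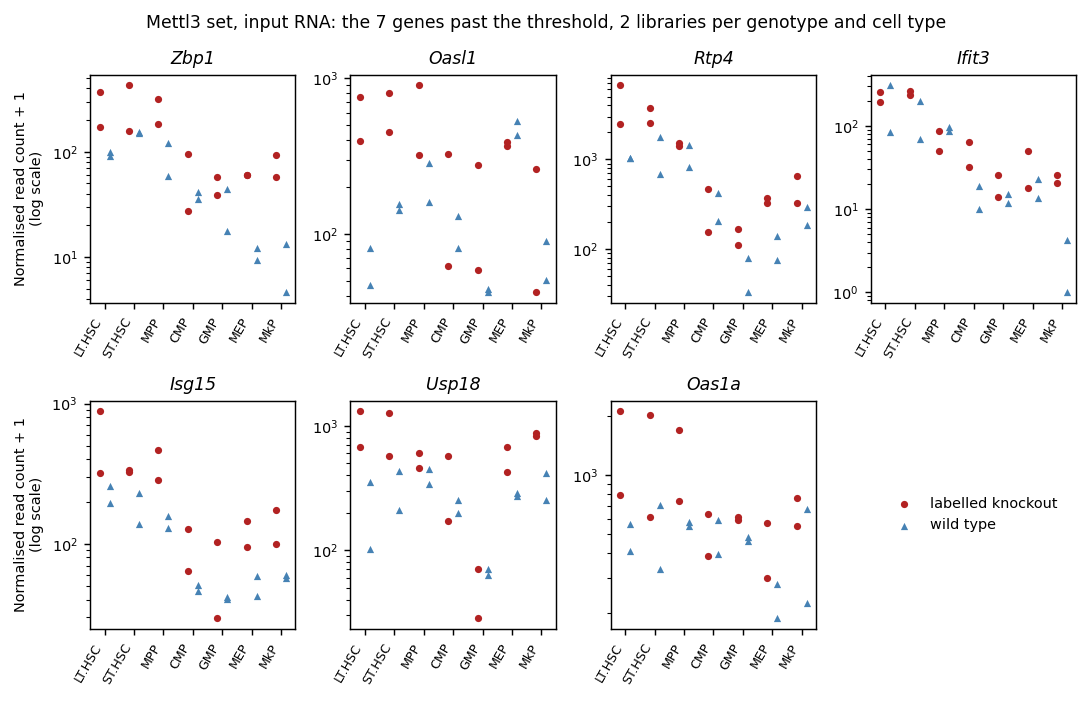
Normalised read count + 1 (log axis) of the 7 members called in the Mettl3 comparison, in each input library by cell type, with libraries labelled knockout left of wild type. Points are single libraries (n = 2 per type and genotype). In LT.HSC, Rtp4 had 2487 and 6743 in libraries labelled knockout, against 1032 and 1036 in wild type.

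Within single types few genes passed at all. Genes past the threshold made up 0.539% of those tested in LT.HSC, 0.0133% in ST.HSC, 0.0133% in MPP, 0.00665% in CMP, 0% in GMP, 2.14% in MEP and 0.113% in MkP. Only Oasl2 in MEP passed among the members, with 180 and 133 in libraries labelled knockout, against 5.54 and 51.6 in wild type (3.07 ± 0.71, adjusted p = 0.0203). That call was lost in 7 of 35 other settings. At an unadjusted p under 0.05, 5 of 35 members passed in LT.HSC with 2540 of all 15030 genes, 4 in ST.HSC with 1712, 4 in MPP with 1502, 1 in CMP with 254, 2 in GMP with 229, 3 in MEP with 1130 and 4 in MkP with 1422. As an alternative, edgeR on the recovered reads called 0 members in any type. A difference of the knockout effect between types was found for 0 members (0.0133% of all genes), and at an unadjusted p under 0.05 for 1 member and 629 genes.

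In the IP libraries, edgeR called 0 members in either direction, where 0.441% of all genes were higher and 0.155% lower. At an unadjusted p under 0.05, 7 of 35 members passed, as did 1921 of all 17463 genes. DESeq2 called 3 members (Oasl1, Zbp1 and Rtp4), with 662 of all genes higher and 200 lower. The count was near the threshold, and leaving out 1 IP library at a time left it at 0 in 3 of 28 cases and gave at most 2. Zbp1 had 0, 12.3 and 77.2 CPM in IP libraries labelled knockout, against 0, 2.60 and 15.9 in wild type (2.83 ± 0.70, adjusted p = 0.0530). Rtp4 had 1.47, 31.2 and 264 CPM in libraries labelled knockout, against 0, 13.4 and 151 in wild type (1.54 ± 0.47, adjusted p = 0.126). Both genes overlapped between genotypes. The ratio of IP to input, called m6A enrichment below, did not differ for any member in limma, as for 0% of all 14575 genes tested. At an unadjusted p under 0.05, 646 genes and 1 member (Mx1, 2.47) passed. The scaling within each table removes any loss of m6A that all genes share.

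The m6A enrichment of the members in the wild-type atlas was log2 CPM of the IP minus log2 CPM of the input. IP and input tables were scaled separately, so its zero is arbitrary, and it is read by rank among genes. The members as a whole lay in the middle of the 16753 genes ranked. Their median was 0.21 and that of all genes 0.23, with 17 of 35 above the median of all. Single members stood near both ends. Dtx3l had a mean of 2.08 over the 16 types, at percentile 97.3 of all genes, from 0.42 in B_cell to 3.63 in CD8. Samd9l followed with 2.05 (percentile 97.1), and Adar had 1.48 (percentile 88.5). At the other end were Ifi35 with -2.02 (percentile 1.90), Oasl1 with -1.81 (3.11), Ifit3 with -1.79 (3.28) and Oas1a with -1.72 (3.83). In the Mettl3 set, the wild-type libraries of Dtx3l again had a high mean of 2.14 (percentile 98.4). Over the 7 types Dtx3l had 1.79 to 3.14 in libraries labelled knockout, against 1.52 to 2.79 in wild type. Other wild-type means of that set are read against its median over all genes, -0.97. Oasl1 with -2.93 (percentile 4.47) and Ifit3 with -2.86 (5.22) were again near the low end. Ifi35 with -1.88 (percentile 22.8) and Oas1a with -1.94 were less extreme than in the atlas. Samd9l had 0.84, and Adar had -0.69, under percentile 70.4. Gene depth and transcript length were not modelled in this ratio.

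**Figure D5:**
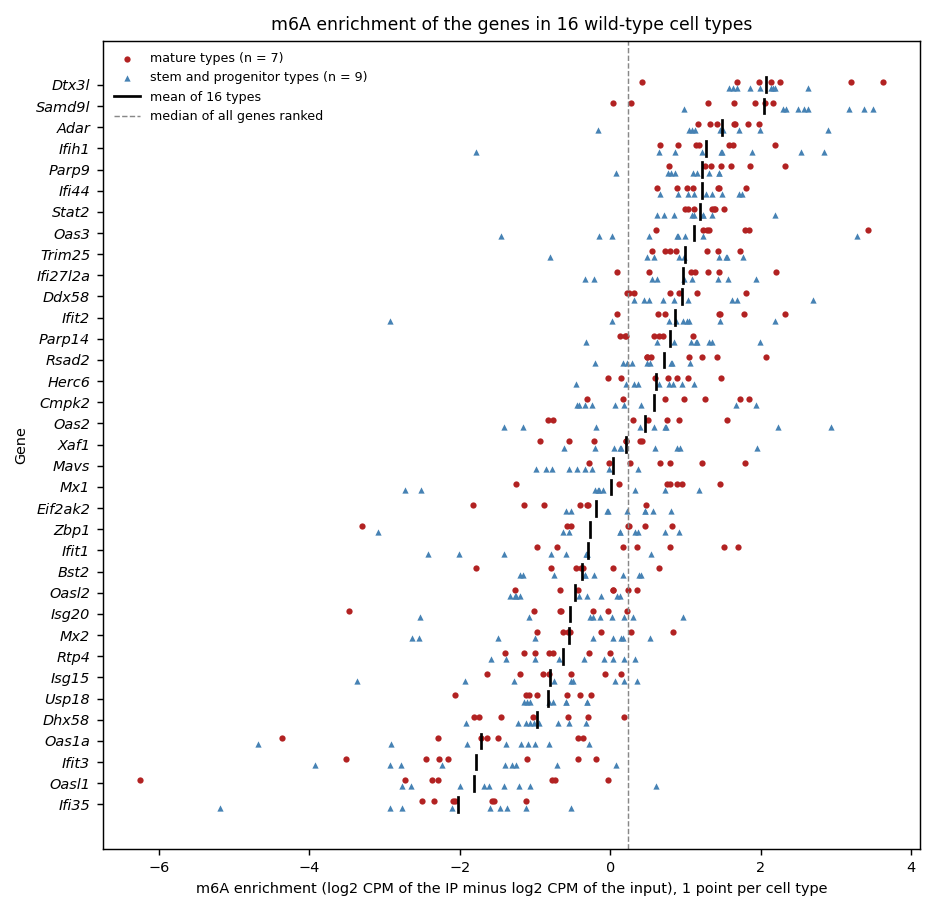
m6A enrichment of each member, log2 CPM of IP minus log2 CPM of input, in the 16 atlas types. Points are type means of 2 libraries, bars are means over types and the dashed line is the median of all genes ranked, 0.23. Dtx3l and Samd9l lie at the high end, and Ifi35 and Oasl1 at the low end.

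Enrichment differed among the 16 types for 10 of 35 members, where 23.8% of all genes passed. The count was 6 without input CD8 library 2 and 17 without IP LMPP library 1. These were Ifi35, Isg15, Isg20, Oasl1, Zbp1, Bst2, Dtx3l, Samd9l, Adar and Eif2ak2. Between mature and stem or progenitor types 0 members had a higher and 2 a lower enrichment, where 1.74% of all genes were higher and 4.67% lower. Samd9l averaged 1.35 ± 0.86 (SD over 7 types) in mature types, against 2.60 ± 0.75 (SD over 9 types) in stem and progenitor types (-1.25 ± 0.23, SE, adjusted p = 4.50e-04). It was lowest in B_cell at 0.04 and CD4 at 0.27 and highest in ST.HSC at 3.5. Eif2ak2 (PKR, a kinase switched on by double-stranded RNA) averaged -0.63 ± 0.73 in mature types, against 0.15 ± 0.49 in stem and progenitor types (-0.77 ± 0.22, adjusted p = 0.0235), with CD8 at -1.83 and ST.HSC at 0.82. Samd9l was also higher in the inputs of mature types, and enrichment subtracts those same inputs, so the 2 results are not independent. Without IP Monocyte library 2 or IP Neutrophil library 2 Eif2ak2 did not pass, with an adjusted p of up to 0.0549.

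In LT.HSC labelled Igf2bp2 knockout, edgeR called 0 of 12221 genes against wild type (0%). DESeq2 called 56 genes higher and 38 lower, 0 of them members. Before adjustment, 777 genes and 2 of the 34 members tested had p under 0.05. Mx2 was too low to test. Isg20 had 104 and 136 CPM in the libraries labelled knockout, against 10.0 and 50.6 in wild type (2.07 ± 0.76, adjusted p = 0.714). Isg15 had 31.6 and 61.7 CPM in the libraries labelled knockout, against 13.2 and 14.2 in wild type (1.88, adjusted p = 0.744). Neither gene overlapped between the genotypes, which carries little weight with 2 libraries a side. The further interferon-stimulated genes of largest change were Trim21 (-9.50), Ifit3b (-4.27), Parp12 (-3.48) and Cd274 (-3.32), which did not overlap or pass either. Their levels were low, with Trim21 at 0 CPM in the libraries labelled knockout, against 7.49 and 11.8 in wild type. The share of all genes without overlap is not given here. Of the members, 24 of 34 were positive, with a median log2 fold change of 0.34 over the members and 0.00 over all genes. The other lists of the pathway had negative medians, with 24 of 56 further interferon-stimulated genes positive (median -0.21), 8 of 23 receptor and signalling genes (-0.19) and 8 of 21 nucleic acid control genes (-0.09). Markers of myeloid cells had larger values in this comparison, none of them past the adjusted threshold. All 9 neutrophil markers were positive with a median log2 fold change of 2.93, as were 6 of 7 GMP markers (median 2.89) and the 4 monocyte markers tested (median 2.28), and at an unadjusted p under 0.05 there were 5, 6 and 1 of these. Their part in the values of Isg20 and Isg15 was not tested. The count of 0 was reached with 2 libraries a side.

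New RNA was given as the T-to-C ratio after 3 h of 4sU in the Mettl3 set's types other than MkP, and is printed in percent. Its depth is unknown. The members had a median of mean ratios of 1.37%, against 1.23% over all genes, with 18 of 35 above the median of all. Ifih1 (2.78%, percentile 97.2), Samd9l (2.36%, percentile 92.1) and Ifit1 (2.13%, percentile 86.1) were the highest members. Ifi27l2a (0.0848%, percentile 2.30), Bst2 (0.139%, percentile 3.87) and Oas1a (0.285%, percentile 9.07) were the lowest. By limma, 0 members differed between LT.HSC and the mean of CMP, GMP and MEP (0% of all genes) or among the 6 types (0%). At an unadjusted p under 0.05, 3 and 10 members passed, with 1341 and 1695 of 13909 genes. Medians over all genes of single libraries ranged between 0.309% in GMP library 2 and 1.71% in MPP library 2.

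After 24 h of 4sU and a chase in uridine, the authors' averages of the T-to-C ratio were given for 7 times, with no replicate values, so no test was made. The labels list 2 samples per time for LT.HSC and 1 for MkP, and no source used here says which libraries the MkP averages combine. In MkP the members' median ratio per 10000 was 7.91, 7.45, 6.06, 1.51, 1.30, 5.07 and 1.16 at 0.5, 1, 3, 6, 9, 12 and 24 h. The median over all genes was 6.97, 5.26, 4.46, 1.65, 1.57, 2.82 and 1.58. Both were lower at 6 h than at 3 h and higher at 12 h than at 9 h. At 12 h, 21 of 35 members and 19.5% of all genes had a value. Bst2 had 18.3, 16.5, 18, 10.1, 2.51, 1.89 and 1.78 and so was still high at 6 h. In LT.HSC the members' median was 2.47, 10.1, 1.87, 1.45, 1.98, 1.48 and 5.23, against 5.61, 16.1, 2.76, 2.32, 2.12, 2.21 and 9.19 over all genes. The LT.HSC ratios did not decline steadily, and 14 to 32 of the 34 members listed had a value at a given time. Of all 11733 genes listed, 26.6% to 69.1% had one, so the medians of members and of all genes cover different shares.

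Other genes of the pathway were described from lists of receptors and signalling genes, of further interferon-stimulated genes and of nucleic acid control genes. The first 2 lists share some genes, Irf7 and Irf9 among them. In mature types, where 39.4% of all genes were higher and 29.6% lower, 22 of 27 receptor and signalling genes were higher and 1 lower, led by Irf7, the master factor of type I interferon production (2.47 ± 0.17, adjusted p = 4.38e-12), and Socs3, a feedback inhibitor of cytokine receptors (2.24). Of 63 further interferon-stimulated genes 40 were higher and 11 lower, led by the Schlafen genes Slfn1 (6.74) and Slfn2 (5.06). Of 22 nucleic acid control genes 9 were higher and 9 lower, close to the share of all genes, among them the dNTP hydrolase Samhd1 (2.74) and Prkra, an activator of the kinase PKR (-1.92). Irf9, the DNA-binding partner of Stat2, differed by 0.71.

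In LT.HSC against committed progenitors of the atlas, where 32.9% of all genes were higher and 19.5% lower, 15 of 27 receptor and signalling genes were higher and 3 lower. The receptor subunit Ifngr1 was the lowest (-2.62), and the endosomal RNA sensor Tlr7 (2.55), the inhibitor Socs1 (2.35) and the receptor gene Ifnar1 (1.54) were higher. Of the further interferon-stimulated genes 35 of 63 were higher and 5 lower, with the GTPase gene Iigp1 at 5.16, Irgm2 at 3.48 and Ifi205 at -4.58. Of the nucleic acid control genes 8 of 22 were higher and 6 lower, again close to all genes. In the wild-type inputs of the Mettl3 set, with 7.43% of all genes higher and 4.31% lower, the same lists gave 0 higher and 3 lower of 25, 12 higher and 1 lower of 63, and 0 higher and 1 lower of 22. Iigp1 (4.69) was again the highest of them and Ifngr1 (-1.88) was again lower.

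In the Mettl3 inputs, where 7.24% of all genes were higher in libraries labelled knockout and 2.89% lower, 5 of 25 receptor and signalling genes, 11 of 63 further interferon-stimulated genes and 1 of 22 nucleic acid control genes were higher in libraries labelled knockout, and 0 of each list were lower. They included Socs3 (2.08, adjusted p = 0.0103), Socs1 (1.64, adjusted p = 0.00260), Slfn2 (2.33, adjusted p = 3.55e-05), the chemokine gene Ccl5 (2.28) and Trex1, the main cytosolic DNA exonuclease (1.75, adjusted p = 4.44e-05). Irf7 did not pass, at 0.21 (adjusted p = 0.574). In the IP libraries Socs3 (3.63) and Socs1 (3.16) and 3 further interferon-stimulated genes, Ccl5 (3.23), Slfn2 (3.01) and Ifitm1 (1.38), were higher.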

How the data were processed

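The 35 members and the gene lists were chosen with earlier results of these data known. Members were matched exactly by symbol, with 0 sample columns left unmatched. Fastp, Trimmomatic, kallisto and the assembly GRCm38 are named in the submitters' processing notes, without versions or roles. Input values deposited by the authors are a normalised signal, read counts over a library's size factor. In these, 100% of values were whole multiples of 1 read within 0.1 of a read, and edgeR was run on the recovered reads as an alternative. In the second GMP input of the atlas 1 read was worth 1.00, too near 1 for this check to tell, and it was left out of that alternative. The authors deposited whole-number counts for the atlas IP and Igf2bp2 libraries and estimated counts for the Mettl3 IP libraries, rounded here. The T-to-C ratios were deposited as a fraction per gene and are printed in percent or per 10000.

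Inputs were tested with limma 3.58.1 (R 4.3.3) on log2(value + 1), for genes that reached 10 in 2 or more libraries, with all libraries of a table in 1 fit. This scale understates the change of low genes. For Mettl3 IP and Igf2bp2 counts, edgeR 4.0.16 (filterByExpr, TMM factors, quasi-likelihood F test) was used, with DESeq2 1.42.0 as an alternative. Enrichment was log2 CPM of IP minus that of input, with a prior count of 1 and TMM factors within each table, tested in limma. For new RNA, limma used log2(percent + 0.1) and genes with a ratio over 0 in 6 or more libraries. Fits were tested on simulated data. All p-values are 2-sided and adjusted by the Benjamini-Hochberg method over all genes of a fit, with a threshold of 0.05. Values were named for each member past the threshold in the comparison described and for at most 4 genes per other list, those of the largest change, and not all are printed. Marker lists were chosen likewise.

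Alternatives were another pseudocount or filter, quantile or TMM scaling, a replicate block, another tool, leaving out single libraries, and, chosen after seeing the data, leaving out single atlas types. Replicate numbers were not taken to pair the samples, since no table had every correlation between deviations of same-numbered libraries over 0.1. These lay between -0.11 and 0.22 in the Mettl3 inputs and -0.04 and 0.09 in the Mettl3 IP. They lay between -0.13 and 0.34 in the atlas inputs, -0.19 and 0.34 over atlas IP and input, and -0.35 and 0.54 over Mettl3 IP and input. In new RNA they lay between -0.04 and 0.05, and the value was 0.02 for Igf2bp2. Over IP and input, the correlations covered all pairs of groups. The IP and input of the same type and number were not set apart, so a pairing between them was not tested.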

Additional observations from a re-analysis of the deposited data

How the results depend on the processing

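Counts of members are given. For the Mettl3 inputs on the mean of 7 types, leaving out 1 library at a time gave 5 (without knockout GMP library 2) to 8 higher and 0 to 3 lower (3 without knockout ST.HSC library 2), and 1 mean per genotype and replicate number gave 0 higher. Within types, the count higher was 0 with a pseudocount of 10, with no filter or with edgeR on recovered reads, 2 with quantile scaling (Oasl1 and Usp18 in LT.HSC) and 5 with the replicate block (also Rtp4 in LT.HSC, and Oasl2 and Rtp4 in MEP), and leaving out libraries gave 0 to 3 higher and 0 to 3 lower. Oasl2 in MEP then ranged between 1.56 and 4.57. The interaction stayed at 0. For wild-type LT.HSC, the count was 3 without wild-type LT.HSC input library 1 and 3 to 12 higher, 0 lower, over all libraries left out. For the Mettl3 IP it was 2 with no filter (Zbp1 and Rtp4), 3 with DESeq2, 1 (Zbp1) without 3 doubted IP libraries (wild-type LT.HSC 1 and ST.HSC 1, and knockout MEP 1), and 0 to 2 higher and 0 to 1 lower leaving out single libraries. Enrichment under Mettl3 stayed at 0. In the atlas, leaving out libraries gave 24 to 26 higher and 3 to 4 lower in mature types, 20 to 24 higher and 1 lower in LT.HSC, and 34 to 35 in the F test. Quantile scaling gave 4 lower in LT.HSC (Ifi27l2a, Mx1, Mavs and Cmpk2), and Isg20 was -0.46 in mature types without Erythroid. Enrichment in mature types was 1 lower with library totals alone (Samd9l), 0 to 3 higher and 1 to 3 lower leaving out libraries, and 6 to 17 in the F test. Igf2bp2 and new RNA stayed at 0. Over all genes, the Mettl3 inputs gave 1088 higher and 434 lower, 825 and 272 with no filter, 1261 and 649 with the replicate block and 1 and 0 with 1 mean per genotype and number. The Mettl3 IP gave 77 higher and 27 lower, 662 and 200 with DESeq2, 295 and 144 with no filter and 196 and 21 without the doubted libraries. Wild-type LT.HSC gave 1116 and 648, 1814 and 770 with a pseudocount of 10, 2301 and 647 with no filter, 875 and 991 with TMM factors, 2077 and 676 with edgeR and 223 and 65 without library 1. The interaction gave 2, 28 with no filter and 0 with edgeR. Enrichment in mature types gave 291 and 782, 456 and 985 with a prior count of 10 and 215 and 502 with library totals alone, which gave 8547 in the F test in place of 3995. Igf2bp2 gave 0, 36 and 8 with no filter, 8 and 0 with the replicate block and 56 and 38 with DESeq2. New RNA gave 0, and 12 among types with a pseudocount of 1 percent. The replicate block changed no other member count by over 1.5 times. The causes were not tested.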
